A study of Mus musculus with 2 samples.

Results

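Granins and prohormone processing enzymes were examined as a set of 10 genes, out of 30858 features tested, in isolated islets of C57BL/6J mice. The genes are Chga, Chgb, Scg2, Scg3, Scg5, Pcsk1, Pcsk2, Cpe, Ptprn and Ptprn2, and they were chosen by name, through 15 probes that carry these symbols in the authors' deposited table. Total RNA of islets was measured on 8 one-colour arrays, 4 from mice that had lost 60% of the pancreas to surgery (pancreatectomy) and 4 from sham-operated mice. All mice were 8 weeks old and islets were taken on day 3 after either operation. Nothing in the labels tells whether replicate arrays were different animals, pools or repeat hybridisations, and the p-values therefore describe array-to-array spread that could be technical. For sham, the label repeats the position of replicate 2 where that of replicate 4 would stand, and the array deposited under sham was used as replicate 4. In total RNA of whole islets, fewer endocrine cells and less transcript per cell cannot be told apart.

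Peptide hormones are made as longer precursors that are sorted into dense-core granules. Granins (chromogranins and secretogranins) are acidic proteins that aggregate in the trans-Golgi network and help these granules form. Inside the granule, the prohormone convertases encoded by Pcsk1 and Pcsk2 cut precursors after pairs of basic residues, and carboxypeptidase E (Cpe) trims the basic residues that remain. In islets, both convertases take part in making insulin from proinsulin, while Pcsk2 in alpha cells releases glucagon from proglucagon. Ptprn and Ptprn2 encode transmembrane proteins of the granule with phosphatase-like domains, known as autoantigens of type 1 diabetes.

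Several of these genes carry a cAMP response element (CRE) close to their start, a site through which CREB family factors act. RefSeq promoter sequences on GRCm38.p6 were matched for 9 of the 10 genes, Ptprn with a pair of starts. Within the 250 bases before the start, the full palindrome TGACGTCA lay in 3 of 10 promoters, those of Chgb, Scg2 and Pcsk1, against 1.55% of 32851 promoters of the same length. The shorter element TGACG, searched on both strands (CGTCA on the other) and part of every full site, lay in 8 of 10, against 17.8% of all promoters. The stretches below show the full sites and, for Chga, the shorter element, in capitals. These 4 are shown because they hold the 3 full sites and the site of the best known granin. They run 5′ to 3′ on the strand of the gene and end before the start.
Chgb (chr2:132781530-132781617, plus strand): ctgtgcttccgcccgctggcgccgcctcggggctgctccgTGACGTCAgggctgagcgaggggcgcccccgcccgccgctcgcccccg
Scg2 (chr1:79440047-79440134, minus strand): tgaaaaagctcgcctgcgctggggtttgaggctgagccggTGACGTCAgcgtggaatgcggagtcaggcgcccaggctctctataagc
Pcsk1 (chr13:75089739-75089826, plus strand): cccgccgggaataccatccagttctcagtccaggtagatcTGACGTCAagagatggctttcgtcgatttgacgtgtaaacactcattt
Chga (chr12:102554857-102554940, plus strand): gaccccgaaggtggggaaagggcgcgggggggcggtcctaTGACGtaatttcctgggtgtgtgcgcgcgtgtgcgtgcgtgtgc
Counted from the start, the full sites began at base -72 in Chgb, -68 in Scg2 and -78 in Pcsk1, and the Chga element at base -44. A match describes these letters only.

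None of the 10 genes passed the test between pancreatectomy and sham arrays. Groups were compared with limma over all features, with a threshold of 0.05 on the Benjamini-Hochberg adjusted p, which 0.629% of features passed (0.544% higher and 0.0843% lower after pancreatectomy). At an unadjusted p under 0.05 the count was also 0 of 10, against 10.5% of all features. The arrays of the groups overlapped for every member, whereas they did not overlap for 8.28% of features. Changes are given on the log2 scale as pancreatectomy minus sham. The median over the 10 genes was -0.054, with 6 of 10 below 0, and the median over all features was -0.037, with 54.9% below 0. Scaling to the median of each array in place of the 75th percentile moved the median of all features to -0.16 and that of the members to -0.18, with 9 of 10 below 0. Every 95% confidence interval included 0 and lay inside a 2-fold change in either direction. The outermost bounds were -0.79 (0.578-fold) for Ptprn and 0.77 (1.71-fold) for Pcsk1. These intervals are for the brightest probe of each gene with 75th percentile scaling, and other probes or scalings can reach further.

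**Figure D1:**
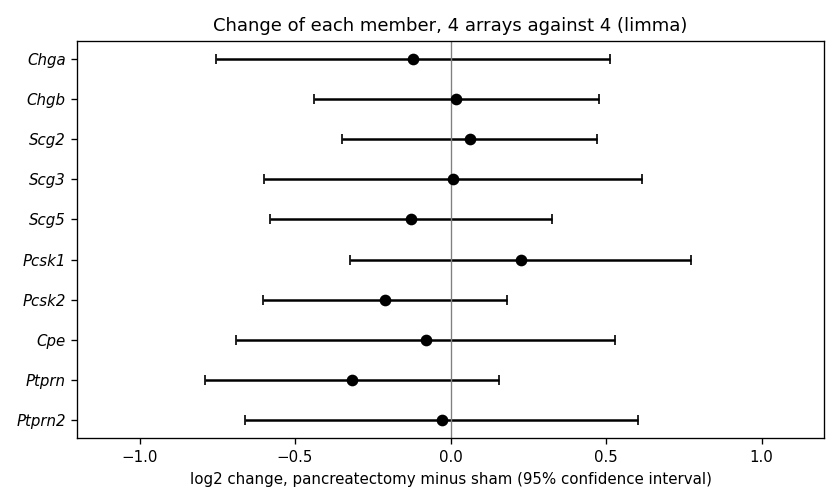
Log2 change of each of the 10 genes (pancreatectomy minus sham, x axis), with points for the limma estimate and bars for its 95% confidence interval, 4 arrays against 4. All 10 bars cross 0, from Ptprn at -0.32 to Pcsk1 at 0.22.

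All 15 probes were well above background on all 8 arrays, and no spot was saturated. The brightest member spot reached 38.3% to 68.1% of the scanner's saturation value. The values below are log2 signals after each array was set to a common 75th percentile, and they compare arrays for 1 probe, not probes with each other. Probe positions are on mm9 as the authors' deposited table gives them, and no annotation of exons was set beside them.

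Among the granins, Chga, which encodes chromogranin A, was read by a probe at chr12:103803083-103803142. In order of replicate, the sham arrays read 18.61, 18.60, 19.55 and 18.35, and the pancreatectomy arrays read 18.32, 19.03, 18.52 and 18.77. Sham replicate 3 was the highest of the 8 arrays and pancreatectomy replicate 2 came next, so each group held high and low arrays. The change was -0.12 ± 0.28 (SE, 4 arrays against 4; limma adjusted p = 0.899).

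Chgb encodes chromogranin B, and its probe lies at chr2:132620703-132620762. It gave 17.33, 17.41, 17.99 and 17.26 on sham arrays and 17.45, 17.82, 17.32 and 17.49 on pancreatectomy arrays, a change of 0.019 ± 0.20 (limma adjusted p = 0.979). The same arrays were highest as for Chga. This probe was printed in 10 spots on each array, so its error within an array could be measured directly. The SD over the 10 spots was 0.023 to 0.065, whereas the SD between arrays was 0.34 in sham and 0.21 after pancreatectomy (n = 4 each). Spots of 1 array share its RNA and hybridisation, so the first SD covers only spot-to-spot error. With quantile scaling the SD between arrays was 0.14 in sham and 0.16 after pancreatectomy.

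For Scg2, the precursor of secretoneurin (probe at chr1:79431323-79431382), the signals were 17.85, 17.84, 17.93 and 17.63 in sham and 17.66, 18.28, 17.62 and 17.93 after pancreatectomy. Its change was 0.061 ± 0.18 (limma adjusted p = 0.925), and sham arrays spread less (SD 0.13) than pancreatectomy arrays (SD 0.31). Scg3 encodes a granin that binds chromogranin A and granule membranes, and its probe lies at chr9:75491320-75491379. Its signals were 16.14, 16.35, 17.10 and 16.22 against 16.31, 16.89, 16.01 and 16.64, a change of 0.0090 ± 0.27 (limma adjusted p = 0.994). Within each group the gap between arrays was again wider than the gap between the group means.

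Scg5 encodes the chaperone that the Pcsk2 proenzyme needs to mature. At chr2:113616781-113616840 its probe gave 16.33, 16.32, 16.90 and 16.28 in sham and 16.08, 16.49, 16.14 and 16.61 after pancreatectomy. The change was -0.13 ± 0.20 (limma adjusted p = 0.846). Sham replicate 3 stood well apart from the other sham arrays, which lay between 16.28 and 16.33, and was above every pancreatectomy array.

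The convertases had changes of opposite sign. Pcsk1 (probe at chr13:75269727-75269786) gave 13.92, 13.70, 14.55 and 13.77 in sham and 14.11, 14.49, 13.79 and 14.47 after pancreatectomy. Its change of 0.22 ± 0.24 was the highest of the 10 genes and did not pass (limma adjusted p = 0.774). Leaving out 1 array moved it between 0.13 (without sham replicate 2) and 0.41 (without sham replicate 3), and it was also 0.13 and 0.14 without pancreatectomy replicate 2 or 4 and 0.37 without pancreatectomy replicate 3. On 3 of 4 pancreatectomy arrays Pcsk1 was above sham replicates 1, 2 and 4, while sham replicate 3 lay above all. Pcsk2 (probe at chr2:143639649-143639708) gave 17.74, 17.74, 18.04 and 17.58 in sham and 17.34, 17.83, 17.38 and 17.70 after pancreatectomy, a change of -0.21 ± 0.17 (limma adjusted p = 0.697). A second Pcsk2 probe, 2.15 kb further along at chr2:143641856-143641915, gave -0.46 ± 0.26 in a fit of all single probes (limma adjusted p = 0.559). By slide row, the Pcsk1 change was 0.49 in row 1 and -0.036 in row 2, and that of Pcsk2 was -0.16 and -0.27.

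Cpe was measured by 3 probes, which did not share a sign. The brightest, at chr8:67071349-67071408, gave 18.08, 18.02, 18.95 and 17.85 in sham and 17.83, 18.51, 17.95 and 18.28 after pancreatectomy, a change of -0.080 ± 0.27 (limma adjusted p = 0.933). A probe that overlaps it by 8 bases, at chr8:67071401-67071460, read 18.04 on sham replicate 3 and gave a change of 0.087 ± 0.18. On sham replicate 3 these neighbours differed by 0.91, and on the other 7 arrays by -0.061 to 0.063. The third probe, 13.9 kb away within Cpe, gave -0.20 ± 0.13, and none of the 3 passed.

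Of the granule membrane pair, Ptprn had the lowest change of the set. Its probe at chr1:75248386-75248445 gave 11.38, 11.39, 11.76 and 11.54 in sham and 11.55, 10.69, 11.16 and 11.40 after pancreatectomy, a change of -0.32 ± 0.21 (limma adjusted p = 0.628). Pancreatectomy replicate 2 was the lowest array for Ptprn although it was the highest pancreatectomy array for 8 of the 10 genes. Without that array the change was -0.15. Ptprn rests on 1 probe printed in 1 spot, so no other probe checks this value.

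Ptprn2 went the other way on the same array. By its brightest probe, at chr12:118515207-118515266, it gave 10.58, 10.71, 11.13 and 10.70 in sham and 10.27, 11.52, 10.40 and 10.81 after pancreatectomy, a change of -0.028 ± 0.28 (limma adjusted p = 0.978). Its other probes gave -0.12 and -0.092, and all 3 were highest on pancreatectomy replicate 2. Of these, 2 overlap along most of their length and the third lies elsewhere in the gene.

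**Figure D2:**
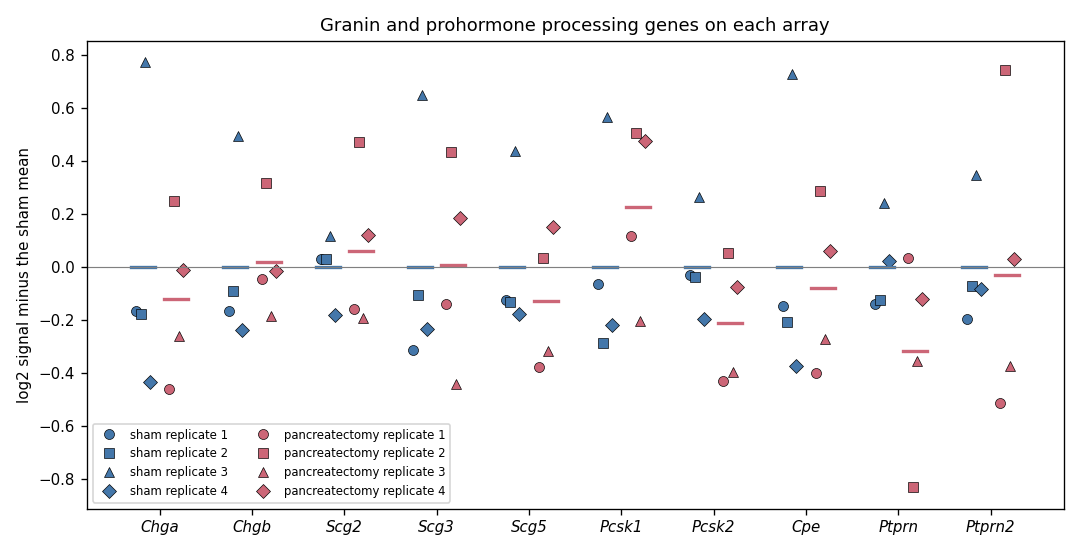
Log2 signal of each gene on each array minus the mean of its 4 sham arrays (y axis), with a marker for each replicate, blue for sham and red for pancreatectomy, and short bars for the group means. By the brightest probe of each gene, sham replicate 3 is the highest sham array for all 10 genes, and pancreatectomy replicate 2 is high for Ptprn2 and low for Ptprn. A second Cpe probe, not shown, is higher on sham replicate 1 (18.14) than on sham replicate 3 (18.04).

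The members varied together from array to array, in both groups. Sham replicate 3 was the highest of all arrays for 8 of 10 genes and pancreatectomy replicate 2 for the other 2. Pancreatectomy replicates 1 and 3 were the lowest arrays for 5 and 2 genes. This order holds for the scaling of the signals given above and changed with quantile scaling. Pancreatectomy replicate 1 was then the highest array for 5 genes, pancreatectomy replicate 2 for 2, sham replicate 3 for 2 and sham replicate 4 for 1. Members also parted on sham replicate 3, which was then the lowest of the 8 arrays for Scg2 (17.44) and the highest for Pcsk1 (14.47). Over the 8 arrays, Pearson's r between pairs of members other than Ptprn ranged from 0.56 to 0.99 (36 pairs, median 0.79), and for the 9 pairs with Ptprn from -0.58 to 0.18. These points share arrays and scaling, and the r values are given as a description. The highest r, 0.99 for Chga with Cpe, rests on the Cpe probe that stood 0.91 above its overlapping neighbour on sham replicate 3. The third Cpe probe was highest on sham replicate 3 (14.60) but lowest on pancreatectomy replicate 2 (14.15). The r values for Cpe therefore describe its brightest probe only. Outside the set, the 5 genes whose values over the 8 arrays were most like the mean of the members were Foxk2 (r = 0.998), Slc27a3 (0.990), Rnf103 (0.987), A430093F15Rik (0.987) and B9d1 (0.987), out of 18591 genes ranked.

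The brightness of the arrays differed alongside these values; its part in them was not tested. In order of replicate, sham arrays had a 75th percentile of 559, 548, 178 and 655 intensity units and pancreatectomy arrays one of 640, 280, 525 and 376, a 3.69-fold range. Over the same arrays, the processed signals of 9 members had ranges from 1.64-fold (Chga) to 3.00-fold (Scg2), and that of Ptprn had a wider one, 4.23-fold. The 3 arrays with the lowest percentile had the highest member means, at 0.46, 0.23 and 0.081 above the sham mean for sham replicate 3, pancreatectomy replicate 2 and pancreatectomy replicate 4, and the other 5 lay between -0.30 and -0.12. After quantile scaling, which gives every array the same distribution, the member means lay between -0.12 and 0.11 and Pcsk1 had 0.26 ± 0.20 (limma adjusted p = 0.661). For the brightest probes, quantile scaling leaves little but their rank, and the Chga signals then spanned 18.63 to 18.79. Cpe (0.10) and Ptprn2 (0.027) changed sign under it, and no member passed.

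**Figure D3:**
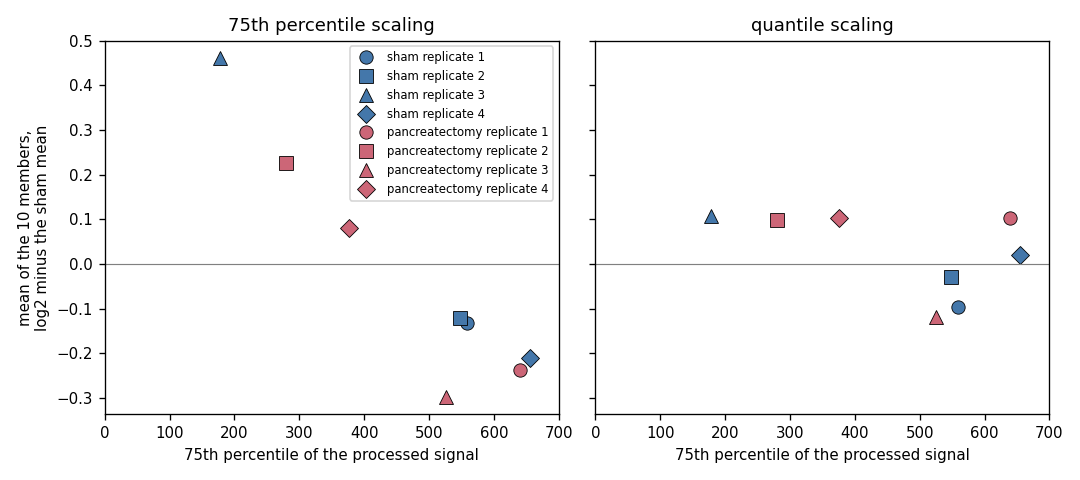
Mean over the 10 genes of the log2 signal minus its sham mean (y axis) against the 75th percentile of the processed signal (x axis, linear intensity) for each array, with 75th percentile scaling at left and quantile scaling at right. At left the dimmest arrays sit highest, at 0.46 and 0.23, and at right the 8 arrays lie between -0.12 and 0.11.

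The difference between a pair of members on the same array does not depend on scaling by a constant, so 6 pairs of related role were compared in this way. Pcsk1 minus Pcsk2 was -3.82, -4.03, -3.48 and -3.81 on sham arrays and -3.24, -3.33, -3.59 and -3.23 on pancreatectomy arrays. On this scale 3 of the 4 pancreatectomy arrays lay above every sham array, and replicate 3 lay among them. The balance shifted towards Pcsk1 by 0.44, with group means of -3.79 ± 0.23 and -3.35 ± 0.17 (SD, n = 4 each; exact permutation test, two-sided, p = 0.0571, adjusted over the 6 pairs p = 0.257), so it did not pass. The smallest p that 4 arrays against 4 allow is 0.0286. This pair reached it when the probes of a gene were averaged (0.56, exact permutation adjusted p = 0.114). That average brings in the second Pcsk2 probe, whose change was -0.46. With normexp background correction the pair also reached the smallest p (0.51, exact permutation adjusted p = 0.171). Over the 12 alternatives for this pair, the exact permutation adjusted p ran from 0.114 to 0.429. Quantile scaling, which does not shift an array by a constant, was not among the alternatives for pairs. After it, sham replicate 3 read 14.47 for Pcsk1 and 17.57 for Pcsk2, closer together than on any pancreatectomy array.

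Cpe minus Pcsk1 was 4.15, 4.31, 4.40 and 4.08 in sham and 3.72, 4.02, 4.17 and 3.82 after pancreatectomy. This difference moved by -0.30 (exact permutation p = 0.0857, adjusted p = 0.257), with pancreatectomy replicate 3 inside the sham range. The sham replicate 3 value of 4.40 rests on the Cpe probe that stood 0.91 above its overlapping neighbour there.

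In the remaining 4 pairs the groups were closer. Scg5 minus Pcsk2, a chaperone against its enzyme, moved by 0.084 (exact permutation p = 0.343, adjusted p = 0.686). Chga minus Chgb moved by -0.14 (p = 0.486, adjusted p = 0.729, exact permutation) and Scg2 minus Scg3 by 0.052 (p = 0.886, adjusted p = 0.886, exact permutation). Ptprn minus Ptprn2 was 0.79, 0.68, 0.63 and 0.84 in sham and 1.29, -0.83, 0.76 and 0.59 after pancreatectomy, a shift of -0.29 (exact permutation p = 0.686, adjusted p = 0.823). Its SD was 0.097 in sham and 0.91 after pancreatectomy, where replicate 2 alone was below 0, and without that array the shift was 0.14.

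**Figure D4:**
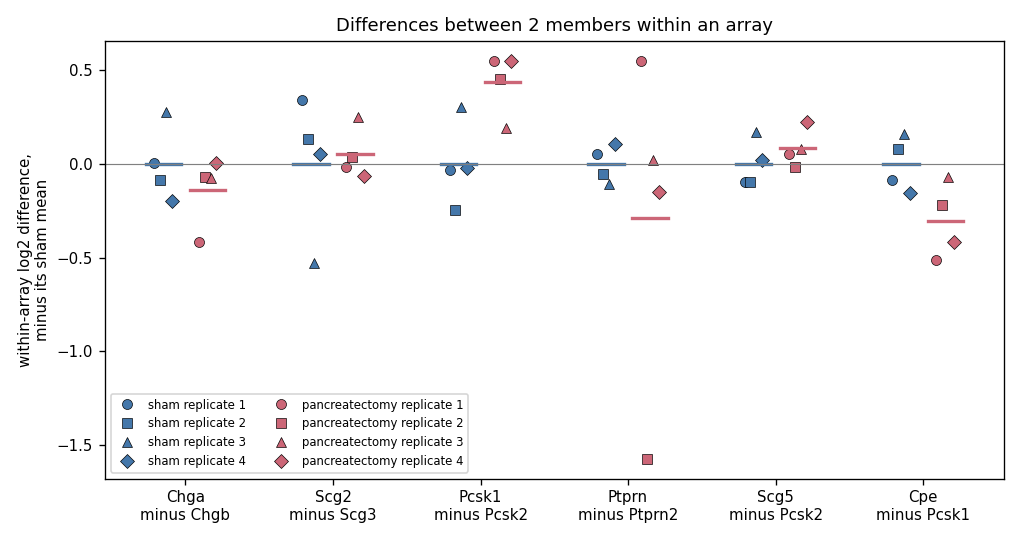
Within-array log2 difference between the genes of each of 6 pairs, minus the mean of that difference over the 4 sham arrays (y axis), with a marker for each replicate, blue for sham and red for pancreatectomy, and bars for group means. Pcsk1 minus Pcsk2 has 3 of 4 pancreatectomy arrays above all sham arrays, and Ptprn minus Ptprn2 has pancreatectomy replicate 2 far below the rest.

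Other genes of granule formation and peptide processing were read from 8 lists of 78 genes, 77 of them measured. Of these, 1 passed and was lower, and 13 of 77 (16.9%) had an unadjusted p under 0.05, against 10.5% of all features. Groups stood apart without overlap for 9 of 77 (11.7%, against 8.28%). The median change was -0.10, with 51 of 77 below 0.

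Granin-like and small granule proteins had the lowest median of these lists, -0.37, with 4 of 5 below 0 and none past the test. The list includes Scgn (-0.48), which encodes a calcium-binding protein of the cytosol, and without it this median would not be the lowest. Pcsk1n, which encodes a granin-like precursor with an inhibitor of the Pcsk1 enzyme, gave 16.24, 16.28, 16.99 and 16.15 in sham and 15.44, 16.07, 15.57 and 16.03 after pancreatectomy. All 4 pancreatectomy arrays lay below all sham arrays, and the change of -0.64 ± 0.24 did not pass (limma adjusted p = 0.409) and was -0.36 without pancreatectomy replicates 1 and 3. Vgf, a granin-related precursor of neuropeptides, gave 11.66, 11.08, 11.55 and 11.15 against 12.24, 11.66, 11.49 and 11.91, a change of 0.47 ± 0.21 (limma adjusted p = 0.497) with overlapping groups.

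Among 7 other convertases none passed, with a median of -0.19. Furin, the convertase of the constitutive secretory route, had 0.17 ± 0.13. Among 7 carboxypeptidases related to Cpe, the median was -0.088 and none passed. Aebp1, an inactive relative found in connective tissue, gave 9.33, 8.81, 8.04 and 8.36 in sham and 12.08, 8.97, 11.74 and 8.80 after pancreatectomy, a change of 1.76 ± 0.77 (limma adjusted p = 0.470). It was high on pancreatectomy replicates 1 and 3 only, where the mean of 10 fibroblast, stellate and pericyte markers lay 2.52 and 1.94 above the sham mean, against -0.36 to 0.33 on the other 6 arrays. The part of these cells in the Aebp1 values was not tested. Without those 2 arrays the Aebp1 change was 0.25. Cpn1, the lowest of this list, had -0.39 ± 0.21, and -0.20 without sham replicate 3.

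Of 8 genes for the modification of peptide ends, none passed and the median was 0.055. Pam, the enzyme that amidates peptide C termini, gave 10.77, 10.89, 11.16 and 10.85 in sham and 11.31, 11.75, 11.02 and 11.42 after pancreatectomy. Its change was 0.46 ± 0.18 (limma adjusted p = 0.438), and 3 of 4 pancreatectomy arrays lay above all sham arrays. The lowest of this list, Anpep, an aminopeptidase, had -0.31 ± 0.18, and -0.20 without sham replicate 3.

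Genes of granule budding and maturation numbered 16, with a median of -0.073 and none past the test. Hid1, which acts in dense-core granule formation at the trans-Golgi network, had 0.20 ± 0.19, with 0.076 without pancreatectomy replicate 4 and 0.34 without pancreatectomy replicate 3. Stx6, a Golgi syntaxin, had -0.47 ± 0.15 (limma adjusted p = 0.323) with 4 of 4 pancreatectomy arrays below all sham arrays, and -0.26 (limma adjusted p = 0.543) when its kept probes were averaged. The list of granule acidification and zinc had 10 measured genes, a median of -0.20 and none past the test. Atp6ap2, an accessory protein of the proton pump, had 0.011 ± 0.18, and Slc30a8, the zinc transporter of insulin granules, had -0.43 ± 0.23 (limma adjusted p = 0.553), and -0.11 without pancreatectomy replicates 1 and 3.

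The substrates of these enzymes formed a list of 12 prohormone genes, of which none passed, with a median of 0.076. Ins1 had -0.082 ± 0.34, Ins2 -0.15 ± 0.39 and Gcg, the precursor of glucagon, -0.50 ± 0.24. Ins1 spanned 18.62 to 20.12 in sham and 18.69 to 19.63 after pancreatectomy, with sham replicate 3 and pancreatectomy replicate 2 highest, as for the members. Cck gave 5.59, 5.38, 5.06 and 5.19 in sham and 8.37, 5.68, 8.15 and 5.86 after pancreatectomy, a change of 1.71 ± 0.62 (limma adjusted p = 0.390), and the groups did not overlap. Like Aebp1 it was high on pancreatectomy replicates 1 and 3, where fibroblast and macrophage markers were also high, and without these arrays its change was 0.47. With normexp background correction it was 1.12, and no Cck probe was well above background on all 8 arrays.

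Transcription factors of endocrine and neuroendocrine genes, 12 in number, had a median of -0.34. Of these, 1 passed and was lower, and 11 did not pass. Rest, a repressor of neuronal and endocrine genes, was highest of this list at 0.92 ± 0.53 and did not pass; it was 6.99 and 7.12 on pancreatectomy replicates 1 and 3 and 4.67 to 5.35 on the other 6 arrays. Its change was 0.59 and 0.55 without the first or the second of these, and 0.49 with normexp. As for Cck, no Rest probe was well above background on all 8 arrays.

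**Figure D5:**
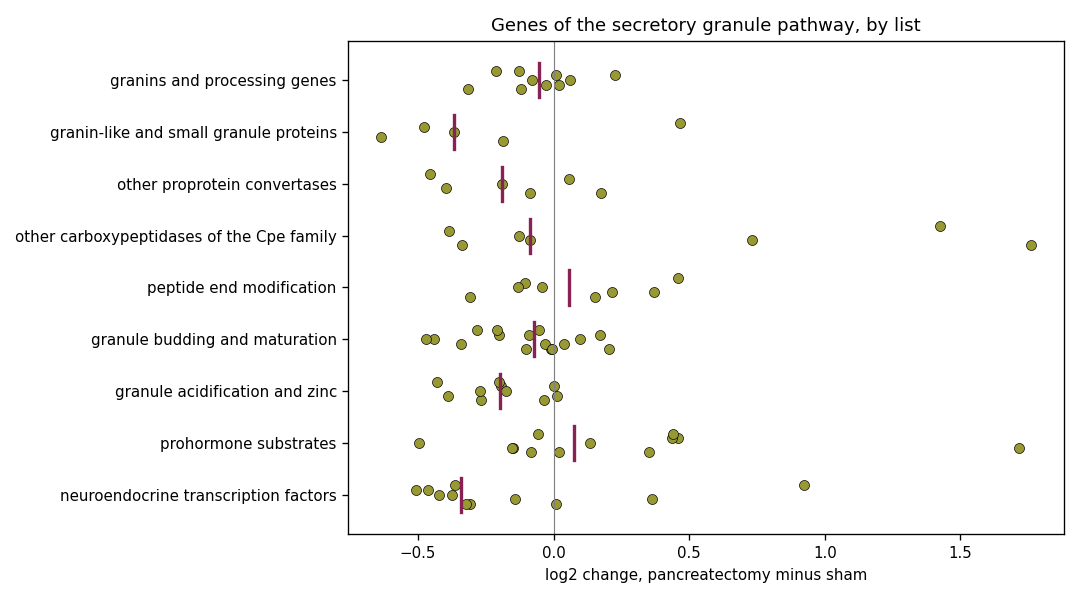
Log2 change (pancreatectomy minus sham, x axis) of genes in the set and in 8 lists, with a point for each plotted gene, none with a limma adjusted p under 0.05, and a vertical bar for the median over all measured genes of the list; 2 measured genes of the lists are not plotted. The medians lie between -0.37 and 0.076, and Aebp1 (1.76) and Cck (1.71) lie farthest above 0.

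Markers of islet and other cells moved between the same arrays and are given beside the values above. The mean of 10 beta-cell markers, 9 of them with a change below 0, lay between -0.22 and 0.39 of its sham mean in sham and at -0.60, -0.079, -0.48 and -0.20 on pancreatectomy replicates 1 to 4. The 7 alpha-cell markers, of which 1 passed and was lower, lay between -0.14 and 0.28 in sham and between -1.23 and -0.69 after pancreatectomy. Macrophage markers, 9 of 10 measured, lay 1.99 and 1.57 above the sham mean on pancreatectomy replicates 1 and 3 and between -0.46 and 0.19 on the other arrays, and Cd163 was above background on none. Liver markers were high on sham replicate 4 and pancreatectomy replicates 1 and 4, at 4.30, 4.39 and 3.44 above the mean, and lymphocyte and gut markers on pancreatectomy replicate 3, at 3.09 and 2.99. The mean of 12 acinar markers was lowest on sham replicate 3, at -1.77, where the members' mean was highest (0.46), and highest on pancreatectomy replicate 3, at 1.46, where the members' mean was lowest (-0.30). On the other 6 arrays the acinar mean lay between -0.58 and 1.31. The -0.58 was on pancreatectomy replicate 1, where the members' mean was also low (-0.24). The 1.31 was on sham replicate 1, where the members' mean was -0.13. After quantile scaling the members' mean was 0.11 on sham replicate 3 and -0.12 on pancreatectomy replicate 3. The part of islet and other cells in the members' values was not tested. Without pancreatectomy replicates 1 and 3, 8 of 10 members had a change above 0, with a median of 0.16 where all features had 0.040, and none passed. The pancreatectomy arrays left, replicates 2 and 4, were also the dimmest of their group (75th percentile 280 and 376). With 75th percentile scaling they had its highest member means. The part of brightness in this shift was not tested.

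The authors' deposited table gives 1 average per group and no error. Its differences for the 15 member probes, such as 0.23 for Pcsk1 and -0.31 for Ptprn, lay within 0.0057 of those computed here from the arrays.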

How the data were processed

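Array files as deposited give linear spot intensity from Feature Extraction; their file headers state version 10.7.3.1, the submitters' processing notes 9.1. Background subtraction and spatial detrending within the array precede that signal, per the file headers. Group averages stand in the authors' deposited table, as intensity and as log2 values shifted to the 75th percentile in GeneSpring GX 12.5, per the file headers. Its log2 medians were 0.0714 (sham) and 0.0033 (pancreatectomy), and how it was centred is not given in the sources used here. Across 37485 probes, its differences followed those computed here with slope 0.977 and r = 0.987.

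Of 59305 non-control spots (55681 probes), 113 to 228 per array were dropped as outliers. Each log2 processed signal had the 75th percentile of its array subtracted and the mean percentile added, and spots of a probe were averaged. Probes well above background on at least 4 of 8 arrays, with 3 values per group, were kept, and a gene was read by its brightest kept probe. Symbols came from the deposited table, updated by Entrez ID where GRCm38.p6 held it (30994 of 33325). Groups were compared without covariates in limma 3.58.1 (R 4.3.3), tested on simulated data, and pairs by exact permutation, two-sided. The members and lists were chosen with earlier results of these data known. Named genes are the members, the called, highest and lowest genes of each list, Ins1, Ins2, Gcg, Scgn and the 5 genes most like the members. Some genes this rule names are not reported here. The groups occupy different slide columns (1 and 2 for sham, 3 and 4 for pancreatectomy), which cannot be told apart from the operation; both slide rows hold both. Precision is limited by the number of arrays. Normexp took the median spot signal, since no mean was in the files used. Alternatives covered scaling, background, filters, probe choice, slide row, weights, variance model and arrays left out.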

Additional observations from a re-analysis of the deposited data

Results flagged for a closer look

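Among 15 member probes and 6 pair differences in 2 groups of 4 arrays, 42 sets of values in all, a single array lay far from the other 3 in 3 sets, where chance gives about 1 in 20. All were sham replicate 3, the array with the lowest 75th percentile. Scg5 read 16.9 there, where the other sham arrays read 16.28 to 16.33. The Ptprn2 probe A_55_P2146200 read 10.92, against 10.24 to 10.27, and the Ptprn2 probe A_55_P1977369 read 9.64, against 9.22 to 9.27.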

How the results depend on the processing

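No member passed in any of 25 alternatives. Pcsk2 (-0.34 to -0.010) and Ptprn (-0.82 to -0.065) stayed below 0 in all 25. Pcsk1 minus Pcsk2 stayed above 0 in its 12 (0.35 to 0.56), which did not include quantile scaling. No paired analysis was possible because the groups share no array numbers in the labels. Over all features, limma called 168 higher and 26 lower; the cause of the shifts that follow was not tested. Counts of higher and lower calls were 18 and 0 with no scaling, 54 and 6 with normexp, 68 and 4 with no filter, 111 and 11 with slide row as a block, 407 and 362 with array weights, and 14 and 1 without pancreatectomy replicates 1 and 3. Median scaling called 49 lower, detection on all 8 arrays 92 higher, and leaving out sham replicate 3 with pancreatectomy replicate 2, an alternative chosen after seeing the data, 40 lower. Calls were 0 and 0 in limma on 4 arrays and within either slide row (1648, 2020 and 896 features at an unadjusted p under 0.05). Leaving out 1 array gave 56 to 165 higher and 3 to 32 lower.

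Signs turned as follows. Median scaling gave Chgb -0.11, Scg2 -0.063, Scg3 -0.11 and Atp6ap2 -0.11, and quantile scaling Cpe 0.10 and Ptprn2 0.027. Normexp gave Ptprn2 0.055, Atp6ap2 -0.028 and Scg2 minus Scg3 -0.040. Array weights gave Chga 0.036, Cpe 0.066, Ins1 0.11 and Ins2 0.086. Without pancreatectomy replicates 1 and 3, values were Chga 0.12, Scg5 0.093, Cpe 0.17, Ptprn2 0.39, Rest -0.13, Ins1 0.20 and Ins2 0.17. On the 4 arrays left without those with liver, gut or B-cell transcripts, they were Chga 0.10, Cpe 0.16, Ptprn2 0.71, Ins1 0.28 and Ins2 0.20. Slide row 1 gave Chga 0.065, Cpe 0.12, Ptprn2 0.25, Ins1 0.20 and Ins2 0.17, and row 2 Chgb -0.23, Scg2 -0.0051, Scg3 -0.34, Pcsk1 -0.036 and Atp6ap2 -0.10. Without sham replicate 3 and pancreatectomy replicate 2, values were Chga 0.015, Scg2 -0.037, Cpe 0.040, Ins1 0.056, Ins2 0.049, Scg2 minus Scg3 -0.12 and Ptprn minus Ptprn2 0.10. Leaving out 1 array at a time gave Chga -0.26 to 0.14, Chgb -0.081 to 0.18, Scg2 -0.076 to 0.14, Scg3 -0.13 to 0.23, Scg5 -0.22 to 0.018, Cpe -0.20 to 0.16, Ptprn2 -0.29 to 0.13, Atp6ap2 -0.079 to 0.13, Ins1 -0.27 to 0.24, Ins2 -0.36 to 0.23, Scg2 minus Scg3 -0.13 to 0.17 and Ptprn minus Ptprn2 -0.57 to 0.14.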
